A study of Mus musculus with 2 samples.

Results

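T and NK lymphocytes were followed in single-cell RNA sequencing of EMT6 tumors, in 1 library of the Olaparib + LLY-283 group and 1 library of the Combo group. A cell was taken as a lymphocyte where at least 2 of its unique molecular identifiers (UMIs, 1 per captured transcript) and at least 0.05% of them came from 9 receptor genes, namely Cd3e, Cd3d, Cd3g, Trac, Trbc1, Trbc2, Ncr1, Klrb1c and Klre1. Cells were required to hold 200 or more genes, under 20% mitochondrial UMIs, at most 2 UMIs of the tumor keratins Krt8 and Krt18, under 0.1% of UMIs from the macrophage genes C1qa, C1qb and C1qc, and under 1% from the neutrophil genes S100a8 and S100a9. This gave 108 lymphocytes among 21985 cells that passed the gene and mitochondrial limits, 60 of 16029 in Olaparib + LLY-283 and 48 of 5956 in Combo. They were split by any UMI of Ncr1, Klrb1c or Klre1 into 41 NK-gene-positive cells (18 in Olaparib + LLY-283 and 23 in Combo) and 67 NK-gene-negative cells (42 and 25).

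EMT6 is a mouse mammary tumor line used as a model of triple-negative breast cancer, and 200000 of its cells were injected under the skin of BALB/c mice. Both groups received LLY-283, an inhibitor of the arginine methyltransferase PRMT5, at 50 mg/kg on a cycle of 3 days on and 4 days off, and Olaparib, a PARP inhibitor, at 50 mg/kg daily. The Combo mice also received 200 µg of an antibody against PD-1, given every 3 days. Tumors of 3 mice were pooled in each library, no untreated library was analysed here, and with 1 library per group the treatment, the pool and the library cannot be told apart, so that no test between groups was possible and all intervals below are 95% intervals of counting error only.

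T cells recognise peptides on MHC molecules through a clonal receptor whose signal is carried by the CD3 chains, and divide broadly into CD8 cells that kill, CD4 helper and Foxp3-positive regulatory cells, and γδ cells with another receptor pair. NK cells carry no rearranged receptor and read a balance of inhibitory receptors and of activating receptors that signal through adaptor chains, such as NKp46, encoded by Ncr1, through the Fc receptor γ chain and CD3ζ, and others through DAP12. Both kill through perforin and granzymes stored in cytotoxic granules, and activated T cells can carry NK receptors.

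Gzma, Gzmb and Gzmc, 3 granzyme genes that were higher in NK-gene-positive cells of both libraries, and Il7r, the interleukin 7 receptor chain, which was lower there, are shown by their promoter windows because each holds the same short motif. Each runs from 250 bases before to 50 bases after the gene start in RefSeq on build GRCm38.p6, read 5′ to 3′ on the minus strand. In the GENCODE M21 gene positions used below, Il7r reaches to 9530176, so its window lies wholly inside that gene. Capitals mark the Runx core TGTGGTT, or its reverse complement where it lies on the other strand, because Runx factors act in T and NK cells.
Gzma, chr13:113100932-113101231: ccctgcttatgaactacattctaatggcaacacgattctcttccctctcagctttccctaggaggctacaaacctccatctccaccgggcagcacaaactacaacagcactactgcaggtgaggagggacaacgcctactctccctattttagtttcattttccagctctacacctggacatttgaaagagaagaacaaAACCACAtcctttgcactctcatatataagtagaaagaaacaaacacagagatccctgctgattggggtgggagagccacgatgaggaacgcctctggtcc
Gzmb, chr14:56262285-56262584: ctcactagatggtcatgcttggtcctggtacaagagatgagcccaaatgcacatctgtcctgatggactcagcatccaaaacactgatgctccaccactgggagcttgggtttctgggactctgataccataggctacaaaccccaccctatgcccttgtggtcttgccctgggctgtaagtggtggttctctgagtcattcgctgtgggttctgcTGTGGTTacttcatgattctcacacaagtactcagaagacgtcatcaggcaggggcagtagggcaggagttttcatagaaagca
Gzmc, chr14:56234608-56234907: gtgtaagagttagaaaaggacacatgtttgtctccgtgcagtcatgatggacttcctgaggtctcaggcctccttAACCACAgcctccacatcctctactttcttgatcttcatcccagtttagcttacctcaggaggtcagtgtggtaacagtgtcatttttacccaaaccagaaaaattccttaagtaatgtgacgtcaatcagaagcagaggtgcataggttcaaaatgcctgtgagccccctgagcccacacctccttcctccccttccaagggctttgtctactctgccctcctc
Il7r, chr15:9529827-9530126: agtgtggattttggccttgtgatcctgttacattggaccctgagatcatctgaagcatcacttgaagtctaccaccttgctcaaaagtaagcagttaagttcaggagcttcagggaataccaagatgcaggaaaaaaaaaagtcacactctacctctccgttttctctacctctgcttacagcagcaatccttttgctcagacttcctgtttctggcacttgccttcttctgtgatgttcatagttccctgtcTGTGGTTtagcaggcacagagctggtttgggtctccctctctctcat
The match began 51 bases before the start in Gzma, 34 before it in Gzmb, 175 before it in Gzmc and at base 3 after it in Il7r. Searched on both strands, these letters stood in 5.37% of the 27025 windows with 1 window per gene, in 3 of the 9 windows found for the genes named as higher in NK-gene-positive cells below and in 1 of the 5 found for those named as lower. The T-box core AGGTGTGA stood in 1.27% of all windows and 1 of those 9 (Nkg7), the STAT motif TTCNNNGAA in 8.47% and 3 of 9 (Ctla2a, Gzmb and Nkg7), the AP-1 motif TGAGTCA in 5.17% and 4 of 9 (Anxa2, Ctla2a, Gzmb and Nme1), and the ETS motif CCGGAAGT in 4.00% and 0 of 9. Of the 5 windows of lower genes, Il7r alone held 1 of these other motifs, the STAT motif. A match is a description of the letters in the window.

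Depth differed between the libraries. All barcodes of Olaparib + LLY-283 held 147214934 UMIs with a median of 7376, and those of Combo 162522700 with a median of 3613.5. The lymphocytes went the other way, with a median of 1015 UMIs in Olaparib + LLY-283 and 4150.5 in Combo, and sums of 71699 and 265615 UMIs. Keratin cells, with more than 2 UMIs of Krt8 and Krt18, did so too, with medians of 10407 and 47733. Cells marked by the C1q genes had medians of 2249.5 and 9616, and those marked by S100a8 and S100a9 673 and 1973.5. Greater depth in Combo was thus not particular to lymphocytes. NK-gene-positive cells had medians of 1090.5 and 5630 UMIs, and NK-gene-negative cells 884 and 3929. In Combo, the deepest NK-gene-positive cell held 33240 UMIs, 19.7% of its class, so that a value summed over this class can rest on 1 cell. Levels are therefore given below as summed UMIs, as the number of cells that carry them, and as CPM (UMIs per 1000000 of the class total). Of all barcodes, 39 sequences occurred in both libraries, and 0 of these were lymphocytes.

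The 9 receptor genes chose the cells, and their values are given only as a description. A member held a median of 4 receptor UMIs in Olaparib + LLY-283 and 13 in Combo, 0.425% and 0.328% of its UMIs. Just inside the limit, 13 and 1 members had exactly 2 receptor UMIs, and just outside it, 22 and 5 cells that met the other limits had 1. The lowest share of a member was 0.0777% and 0.0710%, and the highest share of a cell just under the limit 0.0377% and 0.0268%. Lymphocytes made up 0.374% (interval 0.286 to 0.482, exact Clopper-Pearson) of the cells that passed the filter in Olaparib + LLY-283 and 0.806% (0.595 to 1.07) in Combo, and 1.05% and 1.64% of cells with at most 2 keratin UMIs. Because deeper cells meet the minimum of 2 UMIs more readily, these shares cannot be compared between libraries as abundances.

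**Figure D1:**
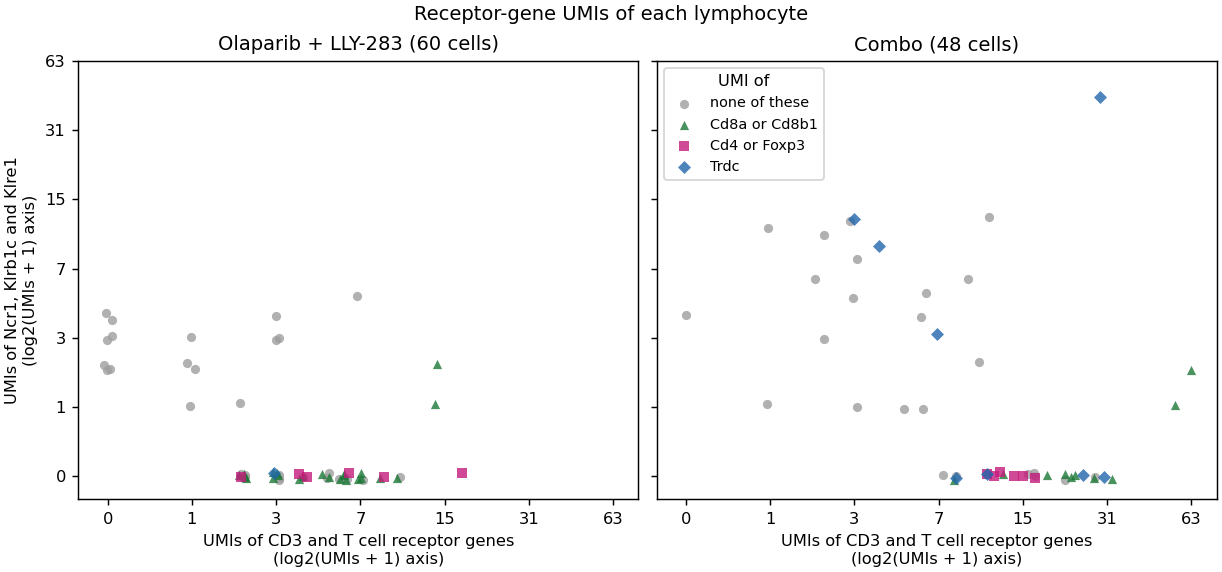
Each point is 1 lymphocyte, with its UMIs of the CD3 and T cell receptor genes of the rule (x) and of Ncr1, Klrb1c and Klre1 (y), both on log2(UMIs + 1) axes, slightly jittered, for Olaparib + LLY-283 (60 cells) and Combo (48 cells); shapes and colors mark cells with a UMI of Cd8a or Cd8b1, Cd4 or Foxp3, or Trdc. Combo cells lie further from the origin, and the CD4 or Foxp3 cells all sit at 0 on the y axis.

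The labels T and NK were checked against genes that the rule did not use. Tyrobp, which encodes the adaptor DAP12, was carried by 13 of 18 and 21 of 23 NK-gene-positive cells of Olaparib + LLY-283 and Combo, and by 5 of 42 and 2 of 25 NK-gene-negative cells. It was also carried by 86.7% and 78.3% of cells marked by the C1q genes. Of cells marked by S100a8 and S100a9, 62.2% and 91.9% carried it. Tyrobp thus separates the 2 lymphocyte classes but does not set NK cells apart from myeloid cells. The leukocyte gene Ptprc was carried by 11 and 23 NK-gene-positive and by 26 and 20 NK-gene-negative cells. Cd8a or Cd8b1 was carried by 2 and 2 NK-gene-positive and by 21 and 9 NK-gene-negative cells. Cd4 and Foxp3 had 0 UMIs in NK-gene-positive cells of either library, with exact 95% upper limits on the share of cells with a UMI of 18.5% and 14.8%. CD3 and T cell receptor genes belong to the rule, and NK-gene-negative cells could enter only through them, so their counts check no label. As a description, 36 of 42 and 25 of 25 NK-gene-negative cells held a CD3 gene. Of NK-gene-positive cells, 4 of 18 and 5 of 23 did, so that the split did not part T from NK cells cleanly. Trbc1 or Trbc2 was held by 9 and 22 NK-gene-positive cells, while 14 and 18 of the class held no CD3 gene and no Trac. UMIs of Trbc1 or Trbc2 alone are therefore not read as marking T cells. The β constant genes are near-identical copies whose UMIs could be split between them by the counting. The classes are called by their rule throughout.

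NK-gene-positive cells made up 30.0% of lymphocytes in Olaparib + LLY-283 (18 of 60, interval 18.8 to 43.2) and 47.9% in Combo (23 of 48, 33.3 to 62.8). Among cells of 1000 or more UMIs the shares were 38.7% and 46.8%. Once these cells were thinned to 1000 UMIs, the expected shares with an NK-gene UMI were 36.8% of 31 cells and 27.3% of 47 cells. The order of the libraries thus turned with depth, and no difference in the share was read.

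NK-gene-positive and NK-gene-negative cells were then compared within each library over 525 genes with 20 or more UMIs over both classes in each library, with the 9 receptor genes left out. Of these, 9 were 2-fold or more higher in NK-gene-positive cells in both libraries (1.71% of those counted), namely Anxa2, Cd74, Ctla2a, Gzma, Gzmb, Gzmc, Il2rb, Serpinb6b and Tyrobp. Another 11 were 2-fold or more lower in both (2.10%), namely Ccl5, Cd8b1, Col1a1, Hif1a, Hmgb2, Ifi27l2a, Il7r, Ly6a, Pmepa1, Sdf4 and Sparc. The genes higher in both were mostly of the cytotoxic granule and of NK signaling, and the lower genes included the CD8 β chain and the interleukin 7 receptor. In the opposite direction past 2-fold were 4 genes, and 287 of 525 had the same sign. Across these genes, which are not independent replicates, the log2 ratios of the libraries had a Pearson r of 0.32 and a Spearman rho of 0.21. The counts in both libraries depended on the minimum and on deep cells, with 21 higher and 29 lower at a minimum of 10 UMIs, and 3 and 3 without the 5 deepest cells of each class. Within Olaparib + LLY-283 alone, 6.45% of 527 genes were 2-fold or more higher and 6.83% lower. Within Combo alone, 8.48% of 2157 genes were higher and 8.67% lower.

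**Figure D2:**
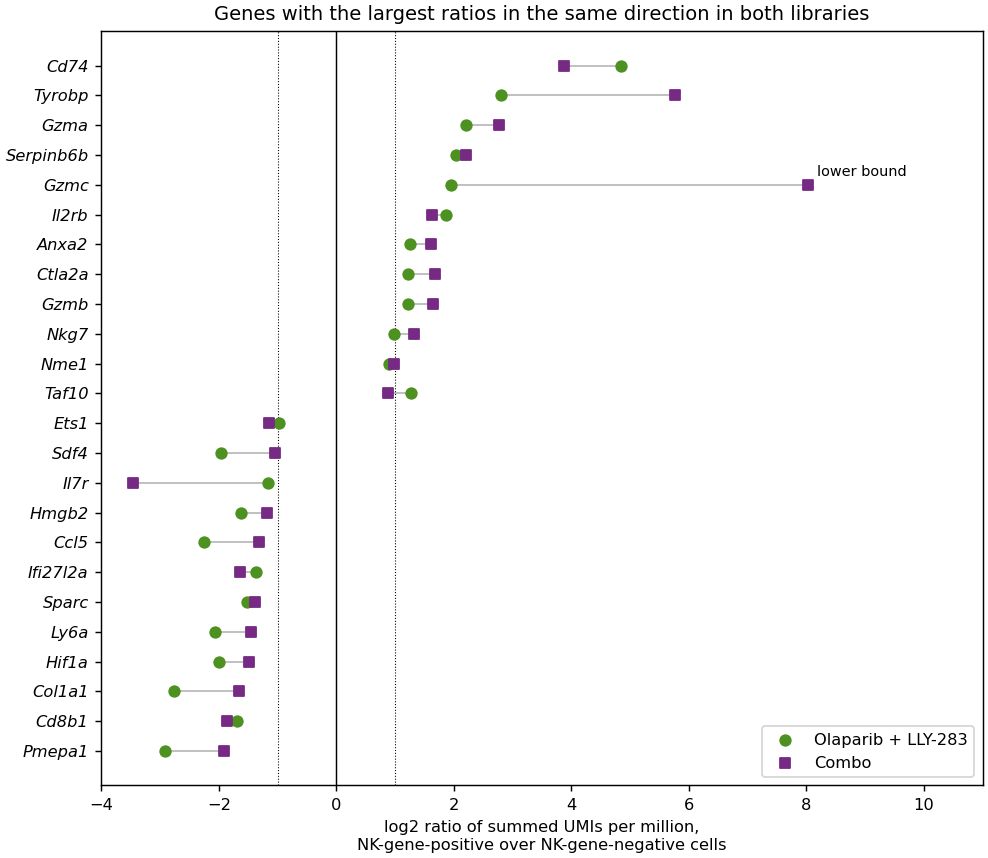
Log2 ratio of summed CPM in NK-gene-positive over NK-gene-negative cells (x) for the 12 genes of each direction with the largest ratio shared by both libraries (y); circles are Olaparib + LLY-283, squares Combo, and dotted lines 2-fold. Tyrobp, Gzma, Serpinb6b and Il2rb lie on the right in both libraries, Il7r and Pmepa1 on the left, and the Combo value of Gzmc is a lower bound because its NK-gene-negative cells held 0 UMIs.

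The adaptor and cytokine receptor genes of NK signaling were carried by many NK-gene-positive cells. Tyrobp (chromosome 7, 30413760 to 30417585 on mm10, plus strand) had 36 UMIs in 13 of 18 NK-gene-positive cells and 10 in 5 of 42 NK-gene-negative cells of Olaparib + LLY-283, 7.41-fold higher in CPM (interval 3.60 to 16.7). In Combo, Tyrobp had 224 UMIs in 21 of 23 cells against 2 in 2 of 25, 64.4-fold higher (17.6 to 535). Most cells of 1 class and few of the other carried it in either library. Fcer1g, the γ adaptor of Fc and NK receptors, had 15 UMIs against 3 in Olaparib + LLY-283, a ratio of 10.3 (2.91 to 55.4), and 168 against 4 in Combo, 24.1-fold higher (9.26 to 89.6). Il2rb, the β chain shared by the interleukin 2 and 15 receptors, had 640 CPM against 166 in Olaparib + LLY-283, 3.86-fold higher (1.54 to 10.5). In Combo, Il2rb had 676 CPM against 217, 3.12-fold higher (1.95 to 5.23). The Combo cells of both classes thus carried Il2rb at levels near those of Olaparib + LLY-283. The neighboring adaptor gene Hcst (DAP10), which lies on the opposite strand next to Tyrobp, did not share its pattern, with 298 CPM against 352 in Olaparib + LLY-283 and 267 against 392 in Combo.

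Transcription factors and other NK genes were sparser in Olaparib + LLY-283. Irf8 had 12 UMIs in 9 NK-gene-positive cells and 7 in 4 NK-gene-negative cells of Olaparib + LLY-283, 3.53-fold higher (1.28 to 10.6). In Combo, Irf8 had 221 UMIs in 22 of 23 cells against 3 in 3, a ratio of 42.3 (14.3 to 207). Irf8 is also a factor of myeloid and dendritic cells, whose markers are given further below. The tyrosine kinase gene Txk was 3.53-fold higher (1.28 to 10.6) in Olaparib + LLY-283 and 2.16-fold (1.23 to 4.01) in Combo. Eomes, a T-box factor of NK and memory CD8 cells, had 1 UMI against 0 in Olaparib + LLY-283, too few to compare, and 24 in 14 cells against 3 in 3 in Combo, a ratio of 4.60 (1.40 to 23.9). Cd7 had 6 UMIs in 5 cells against 0 in Olaparib + LLY-283, at least 4.11-fold higher against a floor of 3 counts, and 31 in 12 cells against 2 in Combo, a ratio of 8.91 (2.27 to 76.8). The C-type lectin receptor Klrd1 (CD94) was carried by both classes, with 597 CPM against 394 in Olaparib + LLY-283 and 480 against 217 in Combo. Klrk1, which encodes the activating receptor NKG2D, had 384 against 124 CPM and 391 against 309.

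Granule genes were higher in NK-gene-positive cells in sum, but in an uneven set of cells. Gzmb, the main caspase-activating granzyme (chromosome 14, 56258838 to 56262260, minus strand), had 32 UMIs in 8 of 18 NK-gene-positive and 28 in 12 of 42 NK-gene-negative cells of Olaparib + LLY-283, 2.35-fold higher in CPM (1.37 to 4.05). In Combo, Gzmb had 377 UMIs in 17 of 23 cells against 69 in 10 of 25, 3.14-fold higher (2.42 to 4.12), and 227 of the 377 came from the deepest cell. Without that cell its log2 ratio in Combo was 0.63, under 2-fold, and 8 genes in place of 9 were 2-fold or more higher in both libraries. Gzma (chromosome 13, 113093825 to 113100981, minus strand), a tryptase, had 37 UMIs in 4 cells against 16 in 2 in Olaparib + LLY-283, 4.76-fold higher (2.58 to 9.16), and 229 in 12 cells against 19 in 2 in Combo, 6.93-fold higher (4.34 to 11.7). Few NK-gene-negative cells of either library carried Gzma. Of the 16 UMIs in Olaparib + LLY-283, 14 lay in 1 NK-gene-negative cell, which also held 26 UMIs of Gzmc and 24 of Gzmd. That cell had 5 UMIs of Tyrobp, 1 of Trac and 0 of the CD3 genes. Nkg7, a granule membrane protein, had 1407 CPM against 705 in Olaparib + LLY-283, a ratio of 2.00 (1.20 to 3.32), and 1755 against 701 in Combo, 2.50-fold higher (1.92 to 3.31). Without the deepest Combo cell, Nkg7 stood at 1277 CPM against 701, under 2-fold. The serpins Serpinb6b and Serpinb9, of a family of intracellular protease inhibitors, went the same way. Serpinb6b was 4.41-fold (1.69 to 12.8) and 4.74-fold (2.60 to 9.49) higher, and Serpinb9 3.70-fold (1.11 to 14.1) and 2.28-fold (1.44 to 3.72).

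Gzmc, of the granzyme cluster on chromosome 14 (56231441 to 56234656, minus strand), had its level from few cells. It had 67 UMIs in 4 NK-gene-positive cells of Olaparib + LLY-283, 51 of them in 1 cell, against 35 in 3 NK-gene-negative cells, 3.94-fold higher (2.58 to 6.11). In Combo, Gzmc had 1357 UMIs in 9 NK-gene-positive cells, 763 and 466 of them in the 2 deepest cells, against 0 in 25 NK-gene-negative cells, at least 260-fold higher against a floor of 3 counts over the class. Gzmd, Gzme and Gzmf were on opposite sides in the libraries. Gzmd had 7 UMIs against 34 in Olaparib + LLY-283 and 470, of which 406 in 1 cell, against 18 in Combo. Gzmf had 1 UMI against 106, of which 88 in 1 cell, in Olaparib + LLY-283 and 91 in 1 cell against 28 in 1 cell in Combo. Gzme had log2 ratios of -0.52 in Olaparib + LLY-283 and 2.93 in Combo, where the deepest cell held 45 of its UMIs. Gzmc to Gzmg are related genes of this cluster, and the split of UMIs among them may be uncertain. Prf1, which encodes perforin (chromosome 10, 61297833 to 61304680, plus strand), had 7 UMIs against 12 in Olaparib + LLY-283, a ratio of 1.20 (0.400 to 3.31), and 172 against 8 in Combo, 12.4-fold higher (6.13 to 29.1), with 100 of the 172 in the deepest cell.

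**Figure D3:**
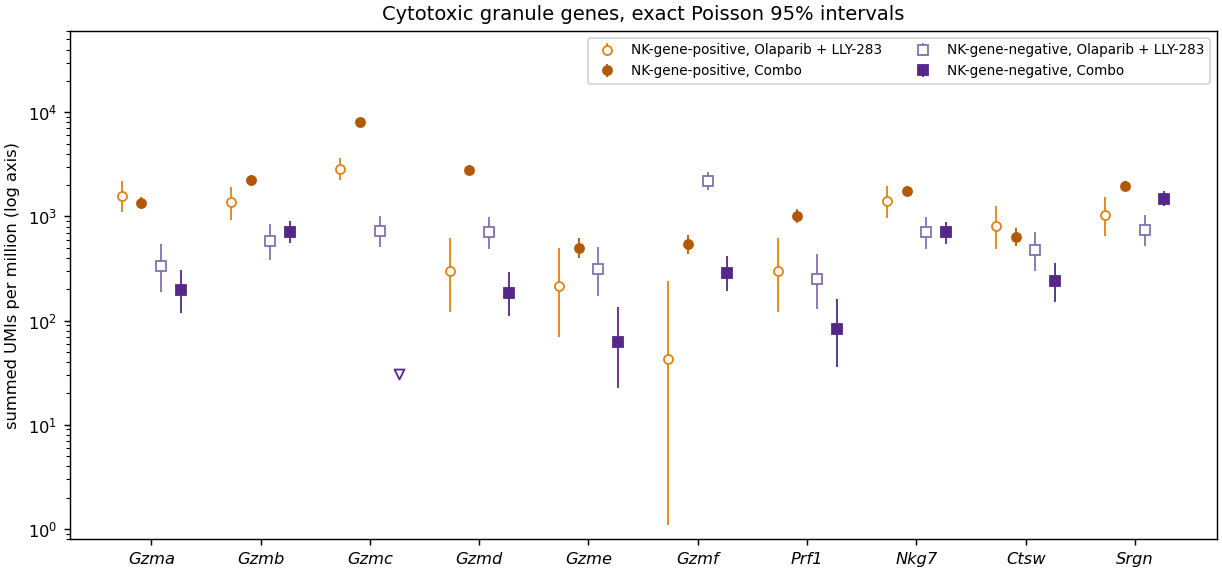
Summed CPM (y, log axis) of 10 granule genes (x) in NK-gene-positive (circles) and NK-gene-negative cells (squares) of Olaparib + LLY-283 (open) and Combo (filled), with exact Poisson 95% intervals of counting error; the open triangle marks 0 UMIs, drawn at the floor of 3 counts. Gzma, Gzmb and Nkg7 are higher in NK-gene-positive cells of both libraries, and Gzmd, Gzme and Gzmf are in Combo only.

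Other genes higher in both libraries had less specific roles. Ctla2a, a cathepsin inhibitor, was 2.36-fold (1.52 to 3.68) higher in Olaparib + LLY-283 and 3.23-fold (2.37 to 4.47) in Combo. Anxa2, a membrane-binding annexin, was 2.41-fold (1.33 to 4.41) and 3.08-fold (2.20 to 4.42) higher. Nme1, a nucleoside diphosphate kinase, and Taf10, a subunit of the basal transcription factor TFIID, were 1.90-fold (0.792 to 4.51) and 2.51-fold (0.947 to 6.86) higher in Olaparib + LLY-283 and 1.99-fold (1.27 to 3.21) and 1.87-fold (1.05 to 3.51) in Combo. Their intervals in Olaparib + LLY-283 included 1. Cd74, the MHC class II invariant chain, rested on few cells, since all 23 NK-gene-positive UMIs of Olaparib + LLY-283 lay in 1 cell, which also held 13 UMIs of H2-Aa, and 60 UMIs in 7 cells stood against 2 in Combo. Without the 5 deepest cells of each class, Cd74 of Olaparib + LLY-283 had 0 UMIs in NK-gene-positive and 1 in NK-gene-negative cells, too few to compare. Cd74 is a marker of antigen-presenting cells.

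The chemokine Xcl1, which attracts cross-presenting dendritic cells, was seen in 1 NK-gene-negative cell of each library. It had 18 UMIs in 9 of 18 NK-gene-positive cells and 1 UMI in 42 NK-gene-negative cells of Olaparib + LLY-283, a ratio of 37.0 (5.85 to 1.54e+03). In Combo it had 219 UMIs in 16 of 23 cells, 115 of them in 1 cell, against 1 in 25, a ratio of 126 (22.4 to 4.99e+03). The cell with 115 Xcl1 UMIs also held 5 UMIs of Cd3e, 7 of Cd3d, 12 of Cd3g, 4 of Trac, 6 of Cd8a and 4 of Cd8b1, and entered the class by 1 UMI of Klre1. In the 18 Combo cells of the class with no CD3 gene or Trac, Xcl1 had 85 UMIs in 13 cells. Xcl1 fell below the minimum of 20 UMIs in Olaparib + LLY-283 and is named from the cytokine list. Ccl5, a chemokine of effector T cells, went the other way. It had 8 UMIs in 3 NK-gene-positive cells against 81 in 17 NK-gene-negative cells of Olaparib + LLY-283, 4.92-fold lower (2.38 to 11.8). In Combo, Ccl5 had 118 UMIs in 7 cells, 79 of them in 1 cell, against 170 in 8 cells, 2.51-fold lower (1.97 to 3.20). Without the cells that held a keratin UMI, the Combo log2 ratio of Ccl5 was 0.76, in the other direction.

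Genes lower in NK-gene-positive cells included the T cell genes Il7r and Cd8b1. Il7r (chromosome 15, 9505788 to 9530176, minus strand) had 213 CPM in NK-gene-positive and 497 in NK-gene-negative cells of Olaparib + LLY-283, 2.33-fold lower with an interval of 0.873 to 7.83 that included 1. In Combo, Il7r had 107 CPM against 1207, 11.3-fold lower (6.85 to 19.7), and 20 of 25 NK-gene-negative cells carried it. Cd8b1, the CD8 β chain (chromosome 6, 71322788 to 71337494, plus strand), was 3.40-fold (1.19 to 13.4) and 3.75-fold (1.88 to 7.88) lower. Hif1a, the hypoxia-inducible factor, was 4.25-fold (1.52 to 16.5) and 2.82-fold (1.92 to 4.19) lower. Pmepa1, a target and inhibitor of TGF-β signaling, had 1 UMI against 20 in Olaparib + LLY-283, a ratio of 9.72 (1.56 to 403) lower, and 19 against 42 in Combo, 3.85-fold lower (2.19 to 7.0). Of the others, Ly6a, which encodes Sca-1, was 4.54-fold (1.40 to 23.3) and 2.75-fold (1.78 to 4.3) lower, and the chromatin protein Hmgb2 3.19-fold (1.43 to 8.39) and 2.28-fold (1.5 to 3.49). After thinning to 1000 UMIs, Hmgb2 had a log2 ratio of 0.015 in Combo. Ets1, a lymphocyte transcription factor, was 2.04-fold (0.749 to 6.93) and 2.24-fold (1.47 to 3.43) lower.

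The interferon-induced gene Ifi27l2a was 2.63-fold (1.32 to 5.78) and 3.15-fold (2.19 to 4.58) lower, with 44 of the 48 NK-gene-positive UMIs of Combo in 1 cell. Sdf4, a calcium-binding protein of the secretory pathway, was 4.38-fold (1.05 to 38.9) and 2.08-fold (1.25 to 3.46) lower. The matrix genes Col1a1 and Sparc, which are not lymphocyte products, had 32 and 19 UMIs in NK-gene-negative cells of Olaparib + LLY-283, of which 26 and 16 lay in 1 cell, and without the 5 deepest cells of each class 2 NK-gene-positive UMIs against 4 and 3 against 3 were left there, too few to compare. The fibroblast marker list summed to 121 UMIs in these cells, 69 in 1 cell, and to 16 in NK-gene-positive cells. In Combo it summed to 127 and 103 UMIs, of which Thy1, which T cells also express, gave 44 and 48. The part of fibroblast RNA in the contrast of Col1a1 and Sparc was not tested.

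**Figure D4:**
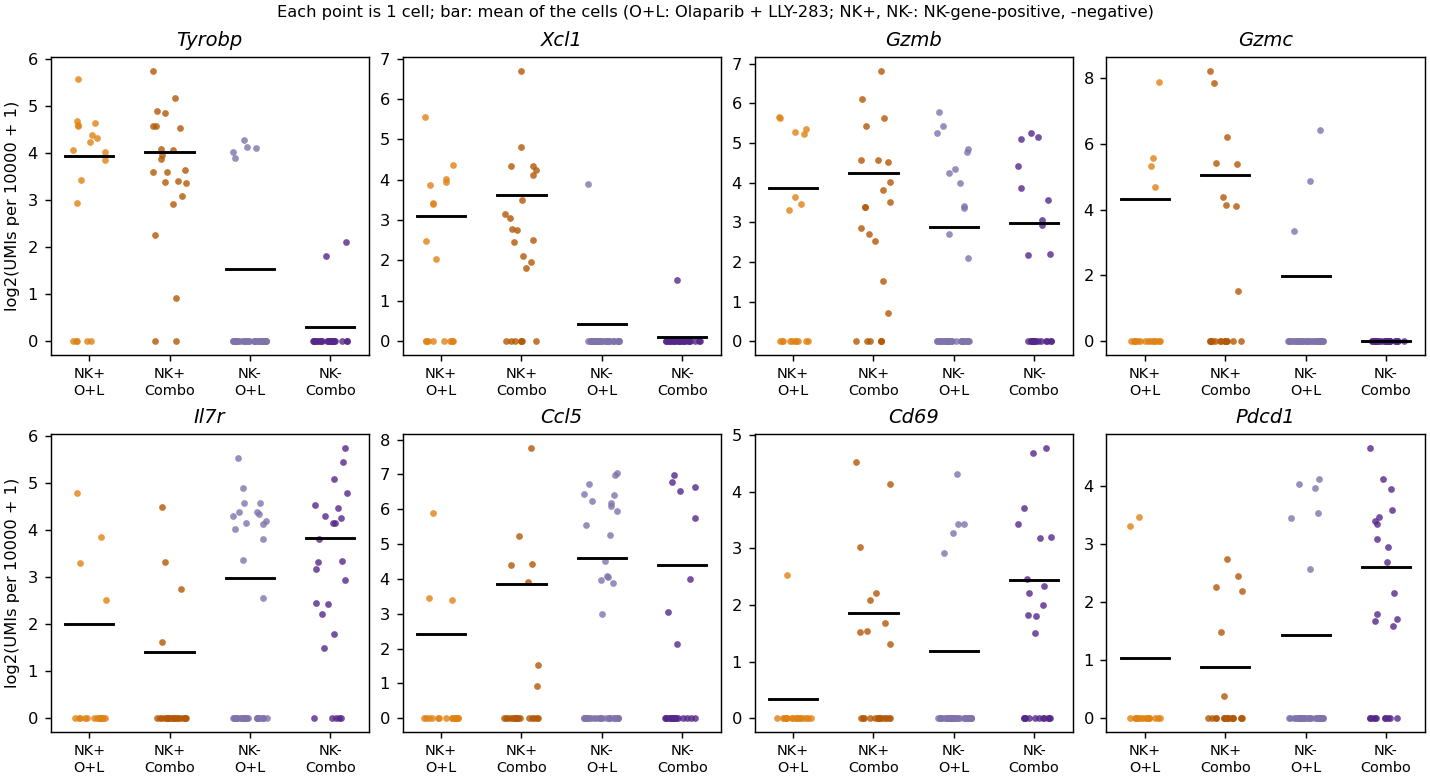
Each point is 1 lymphocyte, with log2(UMIs per 10000 + 1) of 8 genes (y) in NK-gene-positive (NK+) and NK-gene-negative (NK-) cells of Olaparib + LLY-283 (O+L) and Combo (x); black bars are the mean UMIs per 10000 of the cells, placed on the same scale. Tyrobp and Xcl1 are at 0 in most NK-gene-negative cells, Gzmc is at 0 in all 25 of Combo, and Il7r is above 0 in 20 of those 25.

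The fixed gene lists placed these genes among their pathways, and their counts past 2-fold stand beside 6.45% higher and 6.83% lower over all genes in Olaparib + LLY-283, and 8.48% and 8.67% in Combo. Of the list of NK signaling genes and factors, 3 of 5 counted genes in Olaparib + LLY-283 and 10 of 14 in Combo were 2-fold or more higher in NK-gene-positive cells and 0 lower, with a median log2 ratio of 1.86 and 1.85, against 0.04 and 0.02 over all genes. Without the 5 deepest cells of each class, the Combo median was 2.70. Of the cytotoxic granule list, 3 of 9 were higher and 2 lower in Olaparib + LLY-283 (median 0.75, and 1.40 with no keratin UMI allowed), and 11 of 16 higher and 1 lower in Combo (median 1.67). The other lists held too few counted genes in Olaparib + LLY-283 for a median, except the early activation list, where 0 of 6 were past 2-fold (median -0.05). Of their counted genes there, 2 of 4 T cell identity, 2 of 3 interferon-induced, 1 of 2 proliferation and 1 of 3 cytokine genes were lower, 1 of 2 homing genes was higher, and 1 of 3 cytokine receptors was higher and 1 lower. Neither the 1 NK receptor nor the 1 regulatory and helper gene counted there was past 2-fold. In Combo, 5 of 7 counted NK receptors were higher (median 1.52, and 2.81 at a gene minimum of 10), while 11 of 15 T cell identity genes were lower (median -1.60, -0.89 with no keratin UMI allowed and -0.99 without the 5 deepest cells) and 0 higher. Of the regulatory and helper T cell genes, 4 of 7 were lower (median -1.29, and -0.58 with no keratin UMI allowed), and of the proliferation genes 3 of 7 (median -1.0). Of the interferon-induced genes, 5 of 11 were lower (median -0.78, and -1.45 at a gene minimum of 10 or 50), and of the homing genes 6 of 13 were lower and 2 higher (median -0.88, -0.23 with no keratin UMI allowed, and 0.055 without the 5 deepest cells of each class). Cytokine receptors had 1 of 8 higher and 1 lower (median -0.39, and 0.14 without the 5 deepest cells), early activation genes 2 of 12 higher and 1 lower (median 0.14, and -0.47 without them), and checkpoint genes 1 of 4 higher and 2 lower. For the cytokine receptors and early activation genes these counts lay near the share over all genes. The cytokine list had 5 of 9 higher and 1 lower (median 2.52), and this median ranged down to 0.21 under the alternatives, with 0.40 without the NK-gene-positive cells that carry a CD3 gene and 1.39 without the deepest cell. These genes were described on cells chosen by receptor genes with which many of them are known to be expressed together, so the counts describe the classes and support no further reading.

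Within the NK-gene-negative cells, coreceptor genes marked smaller sets, named here by the genes that chose them. Cells with Cd8a or Cd8b1 and without Cd4 or Foxp3 numbered 21 in Olaparib + LLY-283 and 8 in Combo. In these, Ccl5 had 66 UMIs in 13 cells and 142 in 6, Ms4a4b 51 in 16 and 77 in 8, Nkg7 25 in 10 and 57 in 7, and Gzmb 21 in 8 and 25 in 4. Other granule and cytokine genes were in fewer of them, with Gzma in 1 and 2 cells, Prf1 in 3 and 4, and Ifng in 1 and 1. Cells with Cd4 or Foxp3 numbered 6 in each library. Among them, genes known from regulatory T cells had UMIs, with Tnfrsf4 (OX40) at 11 UMIs in 5 cells and 26 in 6, Ikzf2 (Helios) at 10 in 3 and 28 in 6, and Il2ra (CD25) at 7 in 1 and 13 in 5. In the same cells Ccl5 had 0 UMIs in Olaparib + LLY-283 and 1 in Combo.

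Cells with a γδ constant gene and no Trac numbered 1 in Olaparib + LLY-283 and 4 in Combo. The 4 Combo cells held 44 UMIs of Trdc (29 in 1 cell), 42 of Cd3g, 10 of Tcrg-C1 and 7 of Tcrg-C4, each of these genes in all 4 cells, and 0 of Trac. They also held Il7r (25 UMIs in 4 cells), Pdcd1 (12 in 4), Cxcr6 (14 in 4) and Cd69 (22 in 3). Reads of the Tcrg-C copies may be split among them. The remaining NK-gene-negative cells, 14 and 7, carried none of the coreceptor, Foxp3 or γδ constant genes that chose these sets. Among the NK-gene-positive cells with no CD3 gene or Trac, 14 and 18, Tyrobp had 32 UMIs in 11 cells and 165 in 17, Fcer1g 13 in 8 and 127 in 17, and Xcl1 17 in 8 and 85 in 13. Ccr2, a receptor for monocyte chemoattractants, had 6 UMIs in 5 cells and 62 in 14. The deepest NK-gene-positive cell of Combo held 37 UMIs of Ncr1, 31 of Tyrobp, 11 of Cd3g, 17 of Trbc1 and 6 of Trdc.

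Markers of other cells were counted in the lymphocytes because the rule limits only keratin, C1q, S100a8 and S100a9 UMIs. The dendritic list had 36 UMIs in NK-gene-positive cells of Olaparib + LLY-283, 31 of them in 1 cell, and 121 in those of Combo, with H2-Aa the most abundant gene at 15 and 43, against 1 and 4 in NK-gene-negative cells. Of its 10 genes, Flt3, Xcr1, Clec9a, Ccl22, Cd209a and Siglech were at 0 in both classes of both libraries, and Itgax (CD11c) was at 0 except in NK-gene-positive cells of Combo, with 5 UMIs in 5 cells. The macrophage list had 12 and 160 UMIs in NK-gene-positive cells, where 105 of the 160 lay in 1 cell and 94 were Lyz2, and 19 and 64 in NK-gene-negative cells. The neutrophil list had 14 and 90, where Il1b gave 41 of the 90, and 14 and 53. The tumor list had 8 and 21 UMIs in NK-gene-positive and 12 and 11 in NK-gene-negative cells, with Krt8 the most abundant. Of the B cell list only Ighm was seen, with 1 to 9 UMIs a class. The endothelial list had 3 and 17 UMIs in NK-gene-positive and 0 and 7 in NK-gene-negative cells, and the erythroid list 1 UMI in all. The part of these cells' RNA in the results was not tested.

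The Combo and Olaparib + LLY-283 libraries were then set side by side within each class, to see what differed where anti-PD-1 was added. Over 1521 genes with 20 or more UMIs in NK-gene-positive cells of both libraries together, 15.8% were 2-fold or more higher in Combo and 6.77% lower. Over 1145 genes in NK-gene-negative cells, 10.4% were higher and 4.10% lower. The minimum was set over both libraries together, and Combo gave 168670 UMIs against 23454 in the NK-gene-positive and 96945 against 48245 in the NK-gene-negative class, so that genes passed mostly through Combo and nothing is read from the larger share on its side. The median log2 ratio was 0.04 and 0.05. The median mitochondrial share was 1.82% and 1.59% in NK-gene-positive and 1.41% and 2.10% in NK-gene-negative cells of Olaparib + LLY-283 and Combo, and the part of RNA quality in these values was not tested. In NK-gene-positive cells the cytotoxic granule list had 7 of 14 counted genes higher and 0 lower (median log2 ratio 0.99, and 0.060 after thinning to 1000 UMIs), and in NK-gene-negative cells 0 of 11 higher and 5 lower (median -0.99). The granule genes lower in NK-gene-negative cells were Gzmc, Gzmd, Gzme, Gzmf and Prf1.

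Both of these granule values rested on few cells. Summed over the list, NK-gene-positive cells had 10574 CPM in Olaparib + LLY-283 and 22055 in Combo, and without the deepest Combo cell the latter was 13764. With the 5 deepest cells of each library and class left out, the sums were 8657 and 11922 in NK-gene-positive cells. In NK-gene-negative cells they were 7731 and 4580 with all cells, and 3957 and 4657 without the 5 deepest. The order of the libraries therefore turned in NK-gene-negative cells. Gzmb was 1.64-fold (1.14 to 2.43) higher in Combo NK-gene-positive cells, at 2235 CPM against 1364, but stood at 1108 CPM without the deepest cell. With the 5 deepest cells of each library left out it stood at 1581 CPM against 1391, so that no order of the libraries held for Gzmb. In NK-gene-negative cells Gzmb was 1.23-fold (0.780 to 1.98) higher in Combo. Gzmc was 2.82-fold (2.20 to 3.66) higher in Combo NK-gene-positive cells, at 8045 CPM against 2857, and at 4386 without the deepest cell. With the 5 deepest cells of each library left out, Gzmc stood at 1445 CPM against 232. Prf1 was 3.42-fold (1.62 to 8.63) higher, at 1020 CPM against 298, and at 532 without the deepest Combo cell. With the 5 deepest cells of each library left out, it stood at 564 CPM against 309.

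The naming rule ranked genes by ratios with the prior, which places genes at 0 UMIs in 1 library high. The genes it named as higher in Combo NK-gene-positive cells were mostly products of 1 or 2 cells. They are not shown to have the largest ratios. As lower bounds, Cxcl10, Fabp5 and Gzmg had log2 ratios of 1.55, 1.27 and 1.21. Gzmf and Gzmd, not named in this class, had 3.51 and 3.20. Ccl1, a chemokine, had 261 UMIs in Combo, 260 in 1 cell, and 1 in Olaparib + LLY-283, a ratio of 36.3 (6.46 to 1.44e+03), and without NK-gene-positive cells that carry a CD3 gene 0 and 1 UMIs were left, too few to compare. Cxcl10, an interferon-induced chemokine, had 63 in 2 cells against 0, at least 2.92-fold higher against the floor of 3 counts. The lipid-binding gene Fabp5 had 52 in 5 cells against 0, at least 2.41-fold higher, Gzmg had 50 in the deepest cell against 0, at least 2.32-fold higher, and the noncoding gene 2410006H16Rik had 209, of which 161 in 1 cell, against 2. Lower in Combo were Btg1, an antiproliferative gene carried by 16 of 18 and 20 of 23 cells, 2.50-fold (1.70 to 3.61), Prdx5, a peroxiredoxin, 2.53-fold (1.42 to 4.33), Cstb, a cathepsin inhibitor, 2.59-fold (1.42 to 4.53), S100a13 2.68-fold (1.41 to 4.86), and Cd74 2.76-fold (1.63 to 4.53), whose Olaparib + LLY-283 value lay in 1 cell and which had 9 UMIs in Combo and 0 in Olaparib + LLY-283 without the 5 deepest cells. Beside 15.8% of all genes of the class higher and 6.77% lower, the cytokine list had 6 of 9 counted genes higher and 0 lower (median 1.13, and 1.03 with genes at 0 set to their bound), among them Ifng with 100 UMIs in 5 cells, 84 in the CD3-carrying cell described for Xcl1, against 2, and Ccl4 with 180 in 7 cells against 7 in 3. Spp1, whose own value is the median of 1.13, had 3747 CPM against 1705, and 1706 without the deepest Combo cell. Without the 5 deepest cells of each library, Spp1 had 2089 CPM against 2010, Ifng 169 against 155 and Ccl4 1050 against 541. The higher values of these genes thus rested largely on few cells. Tnfrsf9 (4-1BB), an activation receptor, was carried by more cells, with 110 UMIs in 15 of 23 cells against 4 in 3 of 18, 3.82-fold higher (1.45 to 14.3), and 48 of the 110 lay in 1 cell. Without the 5 deepest cells of each library, Tnfrsf9 had 418 CPM against 232, and after thinning it was expected in 32.7% of Combo and 11.9% of Olaparib + LLY-283 cells.

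In NK-gene-negative cells, the named genes higher in Combo were Emb, Pdcd1, Cd69, Bcl2 and Zfp36l2. Emb, a monocarboxylate transporter chaperone, had 81 UMIs in 17 of 25 cells against 10 in 10 of 42, 4.03-fold higher (2.08 to 8.72). Pdcd1, which encodes PD-1, the target of the antibody, had 44 UMIs in 15 cells against 6 in 6, 3.65-fold higher (1.55 to 10.5). Cd69, an early activation and tissue-retention marker, had 44 in 13 cells against 6 in 5, also 3.65-fold (1.55 to 10.5). No Combo cell held more than 16 UMIs of any of these 3 genes, but 22 of the 44 Cd69 UMIs and 12 of the 44 Pdcd1 UMIs lay in the 4 cells with a γδ constant gene and no Trac, a set with 1 cell in Olaparib + LLY-283. Bcl2, a survival gene, was 3.21-fold (1.69 to 6.72) higher, Zfp36l2, which promotes mRNA decay, 2.58-fold (1.34 to 5.45), and Il7r 2.43-fold (1.55 to 3.94). Tnfrsf4 had 55 UMIs in 9 cells against 11 in 5, 2.49-fold higher (1.29 to 5.27), and the costimulatory gene Icos was 1.96-fold (1.07 to 3.81) higher. Ctla4, another checkpoint gene, was 1.95-fold higher with an interval of 0.987 to 4.18 that included 1. Of these genes, Cd69 also had a higher level in Combo NK-gene-positive cells, at 249 CPM against 42.6. There it had 42 UMIs in 9 of 23 cells of Combo, and the Olaparib + LLY-283 level rests on 1 UMI in 18 cells.

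Lower in Combo NK-gene-negative cells were Gzmf (28 UMIs in 1 cell against 106 in 3), Gzmd (18 in 1 cell against 34 in 3), Mt1, a metallothionein, 2.82-fold (2.08 to 3.86), Plac8 2.81-fold (1.64 to 4.90) and the ATP synthase gene Atp5j 2.15-fold (1.25 to 3.69). Without the 5 deepest cells of each library, Gzmf had 28 UMIs in Combo against 1 and Gzmd 18 against 3, log2 ratios of 3.38 and 1.44, with the Combo UMIs of each still in 1 cell. Mt1 was carried by 36 of 42 and 25 of 25 cells. Over all genes of the class, 10.4% were 2-fold or more higher in Combo and 4.10% lower. Of the T cell identity list, 5 of 14 counted genes were 2-fold or more higher in Combo and 0 lower (Ccr7, Cd2, Il7r, Lck and Skap1, median 0.44), and of the homing list 4 of 7 and 0 (Ccr2, Ccr7, Gpr183 and Itgb7, median 1.06, and 0.41 without the 5 deepest cells). Of the regulatory and helper list, 2 of 7 were higher (Maf and Tnfrsf4, median 0.86), of the interferon list 2 of 10 (median 0.49), of the early activation list 2 of 9 with 2 lower (median 0.28), and of the proliferation list 0 of 6. In lists this short, counts of 2 are not read as apart from the share over all genes. In the NK-gene-positive class, beside 15.8% higher and 6.77% lower over all genes, the corresponding T cell identity list had 1 of 8 higher and 1 lower (median -0.32, 0.60 without the cells that carry a CD3 gene, and 0.29 without the 5 deepest cells), the NK receptors 1 of 9 and 1 (median -0.31), the homing genes 2 of 9 and 2 (median -0.44, and 0.37 without the 5 deepest), and the NK signaling genes 3 of 13 higher, namely Car2, Eomes and Irf8, and 0 lower (median 0.08), and none of these counts is read as apart from that share. Mki67, a gene of dividing cells, was seen in 6 and 3 NK-gene-negative and in 0 and 4 NK-gene-positive cells.

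Because Combo lymphocytes were deeper, the fraction of cells that carried a gene was also taken after thinning to 1000 UMIs, which left 12 and 22 NK-gene-positive and 19 and 25 NK-gene-negative cells. Among NK-gene-negative cells, Pdcd1 was carried by 6 of 42 in Olaparib + LLY-283 and 15 of 25 in Combo, and by an expected 7.81% and 33.7% after thinning. In tumor keratin cells, which should lack Pdcd1 and had medians of 10407 and 47733 UMIs, it was carried by 0.0197% and 0.343%. Il7r went from 35.7% and 80.0% to 27.7% and 56.3%, against 0.136% and 0.237% in thinned keratin cells, and Cd69 from 11.9% and 52.0% to 17.0% and 26.8%, against 0.432% and 1.92% in unthinned keratin cells. Combo thus kept the higher share for all 3 genes. The reference was higher in cells marked by the C1q genes. Il7r was carried there by 13.8% and 25.6%, and by 7.76% and 6.91% after thinning. Cd69 was carried there by 6.11% and 9.72%, and by 3.43% and 2.21% after thinning. Cd8b1 went from 38.1% and 36.0% to 41.9% and 19.2%, higher in Olaparib + LLY-283 after thinning. Gzmb stood at 28.7% in both libraries after thinning, from 28.6% and 40.0%.

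In NK-gene-positive cells, thinning brought some shares of the libraries near each other and left others apart. Tyrobp went from 72.2% and 91.3% to 76.9% and 66.1%, Xcl1 from 50.0% and 69.6% to 46.2% and 44.8%, and Gzmb from 44.4% and 73.9% to 49.0% and 50.2%. Il2rb went from 38.9% and 91.3% to 39.7% and 53.2%. The shares of Cd69 went from 5.56% and 39.1% to 3.96% and 16.5%, and those of Ccl5 from 16.7% and 30.4% to 6.04% and 22.3%. Of keratin cells, 9.50% and 19.0% carried Ccl5, and 1.84% and 1.66% after thinning. In keratin cells, Xcl1 was carried by 0.0491% and 0.687%, Gzmb by 0.138% and 2.13% and Il2rb by 0.481% and 3.60%, while Tyrobp reached 14.1% and 53.8%, and 1.77% and 3.29% after thinning. In cells marked by the C1q genes, the thinned Tyrobp shares were 78.9% and 79.2%. In those marked by S100a8 and S100a9 they were 51.7% and 84.8%. Gzmc was carried by 0.305% and 9.99% of keratin cells, and by 0.0279% and 0.358% after thinning, beside 9 of 23 Combo NK-gene-positive and 0 of 25 Combo NK-gene-negative cells. With 12 to 25 cells a class, 1 cell moved a thinned share by 4 percentage points or more.

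**Figure D5:**
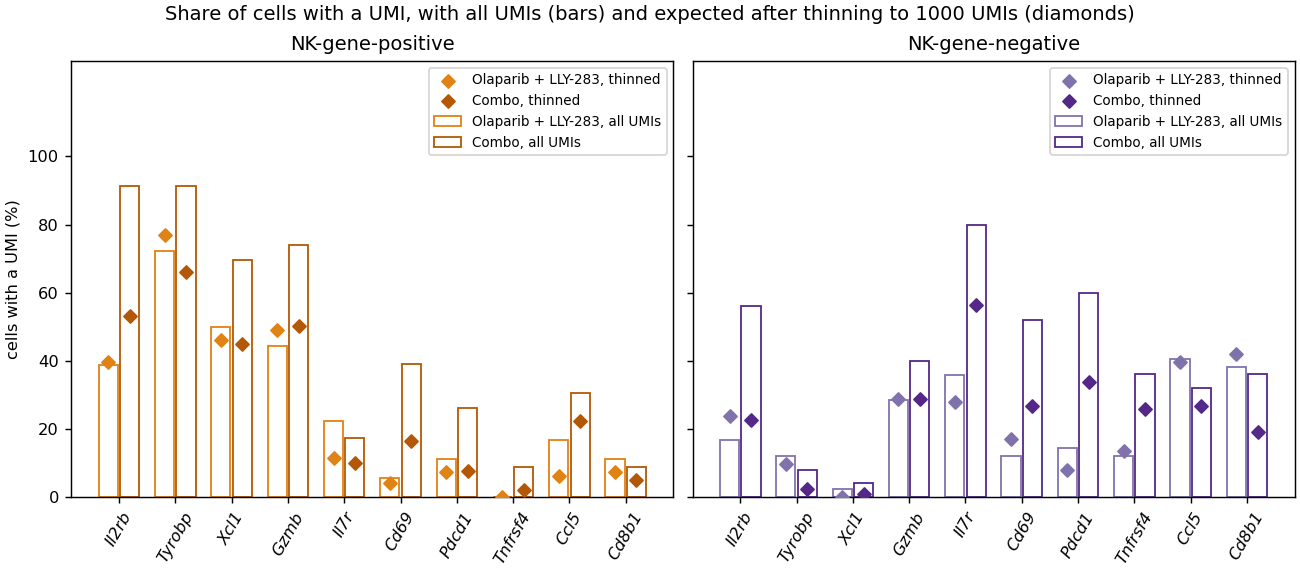
Share of cells with a UMI (y, percent) of 10 genes (x) in NK-gene-positive and NK-gene-negative cells; bars use all UMIs, diamonds the expected share after thinning to 1000 UMIs, for Olaparib + LLY-283 (lighter) and Combo (darker). In NK-gene-negative cells the Pdcd1 diamonds are at 7.81% and 33.7% and those of Il7r at 27.7% and 56.3%, while those of Gzmb are at 28.7% in both.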

How the data were processed

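Single-cell RNA sequencing (10x Genomics, 3 pooled mice per library) was analysed for 2 libraries. The authors deposited UMI counts per gene and cell without normalization. The submitters' processing notes name bcl2fastq 5.0.1, Cell Ranger, Seurat 4.1.0 and mm10, and the matrix headers name Cell Ranger 6.1.2. Gene positions were taken from GENCODE M21. The members, gene lists and comparisons were chosen with earlier results of these data known.

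Counts were summed over the cells of a class and given as CPM, with exact Poisson intervals. Ratios have exact binomial intervals, and log2 ratios a prior of 1 UMI shared by class size. Genes needed 20 UMIs, and a list median 5 counted genes (the latter set after seeing the data). Outside the lists, the text names the 12 genes of each direction with the largest smaller ratio of both libraries, and for Combo against Olaparib + LLY-283 the 5 of each direction and class with 50 or more UMIs, without mitochondrial and ribosomal protein genes. The set of promoter windows used here held no entry for Tyrobp, so none is printed for it. Motifs were chosen after the genes were known.

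Doublets were not removed. Scrublet (scanpy 1.11.5) called 0 cells at its automatic threshold, so the 2069 and 296 highest scores were marked in an added alternative, among them 3 and 0 lymphocytes. Alternatives changed the cell filter, the receptor and keratin limits, the split, the gene minimum, the cells and the depth. The procedure was tested on simulated data. Work was done in Python 3.11.15 with pandas 2.3.3, scipy 1.17.1, matplotlib 3.10.9 and numpy 2.4.6.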

Additional observations from a re-analysis of the deposited data

How the results depend on the processing

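No paired analysis was possible because each group had 1 library. Of the values recomputed under the alternatives, 257 that answer a comparison stayed within their limits and 40 moved. Of the values of named genes 613 stayed within their limits, 118 moved and 13, of 8 genes, changed sign, several of them on few UMIs. The cause was not tested. With all cells thinned to 1000 UMIs, 27 lymphocytes remained in Olaparib + LLY-283, the NK-gene-positive share in Combo was 26.9%, the counts higher and lower in both libraries were 3 and 3, the Combo log2 ratio of Hmgb2 was 0.015, and the Combo over Olaparib + LLY-283 granule median in NK-gene-positive cells was 0.060. With no keratin UMI allowed, 28 lymphocytes remained in Combo, 3 genes were lower in both, the log2 ratios in Olaparib + LLY-283 were -1.28 for Cd74 (0 UMIs against 1, which shows no reversal), 0.52 for Col1a1 (2 against 3) and 2.17 for Sparc (3 against 1), that of Ccl5 in Combo was 0.76, and the medians were 1.40 for granule genes in Olaparib + LLY-283 and -0.89 for T cell identity, -0.58 for regulatory and helper, 0.90 for cytokine and -0.23 for homing genes in Combo. Without the 5 deepest cells, 3 genes were higher and 3 lower in both, the log2 ratios in Olaparib + LLY-283 were -1.26 for Cd74 (0 UMIs against 1), 0.28 for Col1a1 (2 against 4) and 1.15 for Sparc (3 against 3), and the Combo medians were -0.99 for T cell identity, 2.70 for NK signaling, 1.34 for cytokine, 0.055 for homing and -0.47 for early activation genes. Of Combo over Olaparib + LLY-283, the medians were then 0.29 for T cell identity and 0.37 for homing in NK-gene-positive cells and 0.77 for granule and 0.41 for homing genes in NK-gene-negative cells, with log2 ratios of 3.50 for Cd74, 3.38 for Gzmf and 1.44 for Gzmd. The Cd74 value rests on 9 UMIs against 0 and the prior, and with the 0 at the floor of 3 counts the ratio was 0.438, so no reversal is shown. A gene minimum of 10 gave 21 genes higher and 29 lower in both, and Combo medians of 2.81 for NK receptors, 0.72 for cytokine and -1.45 for interferon genes, and a minimum of 50 gave 5, 3 and, for interferon genes, -1.45. Giving each cell equal weight gave 7 genes lower in both, 0.17 for Sparc in Olaparib + LLY-283, a cytokine median of 1.86 in Combo and, for Combo over Olaparib + LLY-283 in NK-gene-positive cells, an early activation median of -0.16. Without NK-gene-positive cells that carry a CD3 gene, the cytokine median in Combo was 0.40, and those of Combo over Olaparib + LLY-283 were 0.60 for T cell identity and 1.47 for interferon genes, with -2.89 for Ccl1, which rests on 0 UMIs against 1 and the prior and shows no reversal. The cytokine median was 0.21 for 2 or more NK-gene UMIs against 0, and 1.39 without the deepest Combo cell, the latter chosen after seeing the data. Without the highest doublet scores, also chosen after seeing the data, the NK-gene-negative granule median of Combo over Olaparib + LLY-283 was -0.17. Scrublet's own threshold gave no other value, since it called 0 cells.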
